A study of Homo sapiens with 6 samples.

Results

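Osteoblast lineage genes were followed in U2OS 2-6-3 cells, a clone of the human osteosarcoma line U2OS that carries a reporter array. The set held 10 genes, ALPL, RUNX2, SP7, SPP1, SPARC, BGLAP, IBSP, TNFRSF11B, DLX5 and MSX2, of 26850 genes with an entry on a primary chromosome. The RefSeq accessions of the 3 deposited comparison tables were matched to symbols, and the entry with the largest summed mean stood for each gene. RNA was sequenced in 6 libraries, 2 in each of 3 groups. The untransfected group received neither plasmid nor transfection reagent. The group called mock was transiently transfected with TetR-RFP and YFP. The group called sample was transiently transfected with CIBN-TetR, PHR-YFP-VP16 and the MS2 coat fusion mCherry-MCP, the parts of a light-controlled activator. All groups grew in doxycycline-free serum and were kept in white light overnight, so the reagent and the plasmids cannot be told apart in either comparison with untransfected cells. The share of cells that took up plasmid is not given in the sources used here. Read counts summed over all deposited entries ran from 44594507 to 54177551 in 5 libraries and came to 9579278 in the shallower sample library. Entries can share reads, so these sums rank the libraries by depth but are not numbers of reads sequenced. The deeper library of a group is called a and the shallower b. No label says that the libraries of a group came from separate cultures, and the spread behind each p-value may therefore be technical.

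Osteoblasts arise from mesenchymal precursors under the control of RUNX2, a Runt domain transcription factor that binds DNA together with its partner CBFB, and of SP7 (osterix), which acts after it. The homeobox factors DLX5 and MSX2 act in the same cells. Committed osteoblasts make the phosphatase ALPL, which frees phosphate for mineral by splitting pyrophosphate, and a matrix that holds SPARC (osteonectin), SPP1 (osteopontin), IBSP (bone sialoprotein) and, late, BGLAP (osteocalcin). They also secrete TNFRSF11B (osteoprotegerin), the decoy receptor that keeps RANKL from osteoclast precursors.

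The Runt domain recognises the letters ACCACA, so these were searched on both strands in the RefSeq promoter windows of build GRCh38.p14, which run from 250 bases before to 50 after each start. Windows were found for 7 of the 10 genes, 10 windows in all, and none was used for SP7, TNFRSF11B or DLX5. The letters stood in windows of 3 genes, RUNX2, SPP1 and BGLAP. Of all 35116 windows of that length, 13.1% held them. The distal RUNX2 window held 4 runs, of which 2 lie before the start, whereas the proximal RUNX2 window held none. That distal window also held 1 run of TGANTCA, the AP-1 letters, which 7.71% of all windows held and no other window of these genes did. The runs that lie before a start are printed below, from the distal RUNX2 window and from the windows of 2 matrix genes of the set. Each is printed 5′ to 3′ on the gene's strand, the plus strand in all, with the searched letters in capitals.
RUNX2, distal start, ACCACA at -191, chr6:45328127-45328156: aggaaaggccttACCACAagccttttgtga
RUNX2, distal start, ACCACA at -87, chr6:45328231-45328260: gtgaggtcacaaACCACAtgattctgcctc
RUNX2, distal start, TGANTCA at -243, chr6:45328080-45328109: atcctcaTGAGTCAcaaaaattaaaaagct
SPP1, ACCACA at -142, chr4:87975560-87975589: ttttttgttttaACCACAaaaccagagggg
BGLAP, ACCACA at -163, chr1:156242009-156242038: ccgcagctcccaACCACAatatcctttggg
Positions count from the RefSeq start. The BGLAP run lies inside the deposited BGLAP entry, which begins further upstream. Binding was not measured, and these are matches of letters only.

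Of the 10 genes, 7 had more than 1 read and were tested in all 3 comparisons, SP7 had 1 read in the whole series, and IBSP and DLX5 had none. In mock against untransfected cells 5 of the 7 passed an adjusted p of 0.05 in the authors' deposited table, where 50.9% of 17091 tested genes did. ALPL, SPP1 and TNFRSF11B were higher (27.5% of all tested were), and RUNX2 and SPARC were lower (23.4% were). In sample against untransfected cells 4 of the 7 were called, where 37.3% of 15565 tested genes were. ALPL and MSX2 were higher (20.2% of all), and RUNX2 and SPARC were lower (17.1%). At an adjusted p under 0.01 the counts were 4 and 3, where 42.9% and 28.2% of all tested genes passed. A limma fit of the recovered reads called the same numbers, 5 and 4, where it called 59% and 50.6% of 14891 genes. Counts this near to the background say nothing particular to the set. The median log2 fold change of the 7 in the authors' deposited tables was 0.27 in mock and 0.14 in sample cells, against -0.0039 and -0.0028 over all tested genes. Both comparisons share the untransfected libraries. In bulk RNA, fewer cells that express a gene and less of its RNA per cell cannot be told apart.

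**Figure D1:**
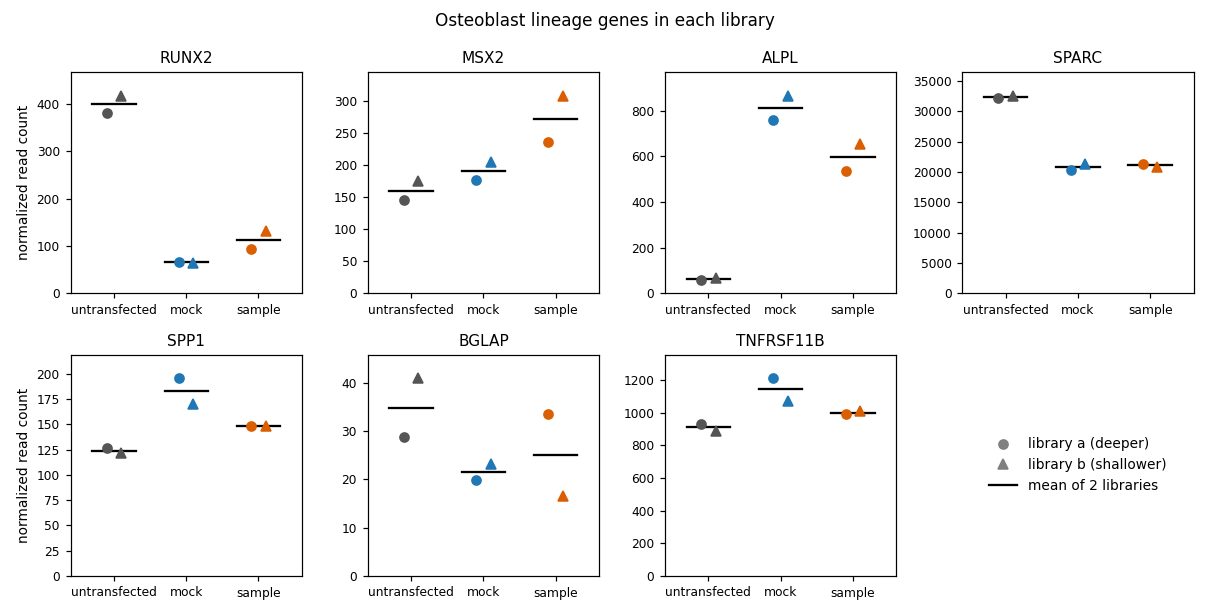
Normalized read counts (linear axes from 0) of the 7 tested osteoblast lineage genes in each of the 6 libraries, by group, with circles for the deeper and triangles for the shallower library and a bar for the mean of 2. RUNX2 lies at 381 to 417 in untransfected and at 63.8 to 131 in all transfected libraries, while ALPL lies at 57.5 to 68.9 in untransfected and at 538 to 866 in all transfected libraries.

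RUNX2, the master regulator of the lineage (entry NM_001015051.3, hg38 chromosome 6, 45328317 to 45551082), stood at 381 and 417 normalized read counts in the untransfected libraries, at 66.3 and 63.8 after mock transfection and at 92.8 and 131 in the sample group. All transfected libraries lay below both untransfected ones, and the mock and sample libraries did not overlap. Group means were 399 ± 25.3, 65.1 ± 1.78 and 112 ± 27.4 (SD, n = 2), so RUNX2 RNA in mock cells was at 0.163 and in sample cells at 0.281 of its untransfected level. RUNX2 fell in both comparisons, by log2 values of -2.49 (SE 0.20, adjusted p = 5.0e-35) and -1.76 (SE 0.26, adjusted p = 1.92e-10) per DESeq2 in the authors' deposited tables.

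RUNX2 is transcribed from a distal and a proximal start, and the deposited tables count both. The entry that begins at the proximal start (45422577) held 582 and 580 reads in the untransfected libraries, where the entry that begins at the distal start held 583 and 581. In the 4 transfected libraries both entries held equal numbers, 94 and 69 after mock transfection, 119 and 32 in the sample group. The distal entry thus exceeded the proximal one by 1 read in each untransfected library and by 0 elsewhere. A shorter entry that also begins at the distal start (45328317 to 45372055) held 4 and 1 reads in untransfected libraries a and b and 0 elsewhere. The fall of RUNX2 was measured in reads that the longer distal entry and the proximal entry share. The promoter letters printed above for RUNX2 belong to the distal start.

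SP7, which acts after RUNX2 in osteoblast differentiation, had 1 read, in untransfected library a, and none in the other 5. DLX5, a homeobox factor of the lineage, had 0 reads in all 6. A count of 0 allows up to 3 reads, which is 1.96 to 2.77 normalized read counts in the deeper 5 libraries and 12.3 in sample library b, for counting error only. Neither SP7 nor DLX5 was thus detectable at a level that could be compared between groups.

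MSX2, the homeobox factor of the set that was expressed (entry NM_002449.4, chromosome 5, 174724572 to 174730899), stood at 145 and 176 normalized read counts without transfection, at 177 and 205 in the mock group and at 236 and 308 in the sample group. The sample libraries lay above all others, and the lower mock library lay close above the upper untransfected one. Group means were 160.5 ± 21.7, 191 ± 20 and 272 ± 50.9 (SD, n = 2). MSX2 rose in sample cells, with a log2 fold change of 0.69 (SE 0.26, adjusted p = 0.0245) per DESeq2 in the authors' deposited table, and had 0.27 (SE 0.21, adjusted p = 0.278) in mock cells. In a limma fit of the recovered counts the sample value was 0.66 (adjusted p = 0.0117), and without untransfected library a it was 0.52 (adjusted p = 0.0927).

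ALPL, the tissue-nonspecific alkaline phosphatase and a marker of committed osteoblasts (entry NM_001177520.2, chromosome 1, 21509358 to 21578412), stood at 57.5 and 68.9 normalized read counts in untransfected libraries. The mock libraries held 760.2 and 866, and the sample libraries 538 and 653. All transfected libraries were above both untransfected ones, and both mock libraries were above both sample libraries. Group means were 63.2 ± 8.03, 813 ± 74.8 and 596 ± 81.7 (SD, n = 2), a 12.9-fold higher level in mock and a 9.42-fold higher level in sample cells. ALPL rose with log2 fold changes of 3.62 (SE 0.17, adjusted p = 1.5e-99) and 3.05 (SE 0.23, adjusted p = 2.91e-37) per DESeq2 in the authors' deposited tables. ALPL thus moved opposite to RUNX2 in both comparisons. None of the 3 ALPL promoter windows held ACCACA, the only Runt letters searched, which 13.1% of all windows held. Whether the changes of ALPL and RUNX2 are linked was not tested.

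SPARC, a collagen-binding matrix glycoprotein (entry NM_003118.3, chromosome 5), stood at 32104 and 32523 normalized read counts in the untransfected group, at 20286 and 21324 in the mock group and at 21300.4 and 20850.5 in the sample group. The transfected libraries lay below the untransfected ones, and mock and sample libraries overlapped. SPARC fell to 0.644 of its untransfected level in mock and to 0.652 in sample cells. The log2 fold changes were -0.60 (SE 0.063, adjusted p = 1.03e-20) and -0.60 (SE 0.089, adjusted p = 2.25e-10) per DESeq2 in the authors' deposited tables.

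SPP1, a phosphorylated glycoprotein that binds integrins and mineral (entry NM_001251829.1, chromosome 4), stood at 127 and 121 normalized read counts in the untransfected group, at 196 and 170.2 in the mock group and at 148 in both sample libraries. The 3 groups did not overlap, with sample between the others. SPP1 rose in mock cells, 1.47-fold over the means, with a log2 fold change of 0.57 (SE 0.21, adjusted p = 0.0167) per DESeq2 in the authors' deposited table. In sample cells the authors' deposited table gave 0.24 (SE 0.29, adjusted p = 0.555 by DESeq2). The mock call was lost in a limma fit with library sizes from total counts (0.44, adjusted p = 0.0527), without untransfected library b (0.53, adjusted p = 0.0596) and without mock library a (0.46, adjusted p = 0.0743).

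BGLAP, the late osteoblast hormone and matrix protein (entry NM_199173.5, chromosome 1, 156241962 to 156243332), was near the limit of the data, with 44 and 57 reads in the untransfected group, 28 and 25 after mock transfection and 43 and 4 in the sample group. Normalized read counts were 28.8 and 40.9, 19.8 and 23.1, and 33.5 and 16.4 in the same order. The mock libraries lay below the untransfected ones, and the sample libraries spanned from below the mock to within the untransfected range. The log2 fold changes were -0.55 (SE 0.42, adjusted p = 0.28) in mock and -0.24 (SE 0.47, adjusted p = 0.738) in sample cells in the authors' deposited tables, so neither passed the test. BGLAP shares exons with the readthrough gene PMF1-BGLAP, and how reads were divided is not given in the sources used here. BGLAP reads were 3.1% to 7.41% of the reads of the PMF1-BGLAP entry over the 6 libraries. IBSP, an acidic matrix protein of mineralising bone, had 0 reads in all 6 libraries, with the same upper limits as DLX5.

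TNFRSF11B, the secreted decoy receptor for RANKL (entry NM_002546.3, chromosome 8), stood at 933 and 889 normalized read counts in the untransfected group, at 1210.5 and 1074 in the mock group and at 991 and 1011 in the sample group. The groups did not overlap, and sample lay between the other two. TNFRSF11B rose in mock cells, 1.25-fold over the means, with a log2 fold change of 0.36 (SE 0.11, adjusted p = 0.00208) per DESeq2 in the authors' deposited table. For sample cells the authors' deposited table held 0.14 (SE 0.14, adjusted p = 0.471 by DESeq2). The mock call was lost in a limma fit with total-count library sizes (0.20, adjusted p = 0.171), without untransfected library b (0.29, adjusted p = 0.0852) and without mock library a (0.24, adjusted p = 0.0958). TNFSF11, which codes for RANKL itself, had no read outside sample library b, where it had 1.

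**Figure D2:**
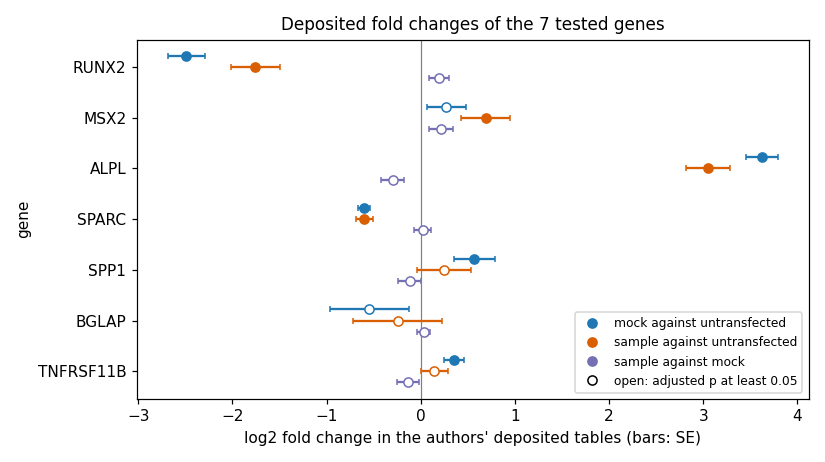
Log2 fold changes of the 7 tested genes in the authors' deposited tables, with bars for the standard error, filled points for an adjusted p under 0.05 and open points otherwise. RUNX2 at -2.49 and -1.76 and ALPL at 3.62 and 3.05 lie farthest from 0, and all 7 points of sample against mock are open.

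Sample against mock cells, both transfected, addressed what differs with the light-controlled plasmids. None of the 7 genes was called per DESeq2 in the authors' deposited table, where 0.0654% of 15285 tested genes were called. At an unadjusted p under 0.05 there was 1 gene by that test (1.94% of all tested genes) and 3 genes by limma (4.32% of all tested), with 0 called by limma at an adjusted p under 0.05. The deposited fold changes of that table are pulled strongly toward 0, so limma estimates are given here. They were -0.51 for ALPL (SE 0.12, adjusted p = 0.76), 0.62 for RUNX2 (SE 0.22, adjusted p = 0.96) and 0.41 for MSX2 (SE 0.17, adjusted p = 0.96). The other 4 lay between -0.31 for SPP1 and 0.43 for BGLAP. The mock and sample libraries did not overlap for 5 of the 7 (ALPL, RUNX2, SPP1, TNFRSF11B and MSX2), nor did they for 34.2% of all 15285 tested genes. A p that misses the threshold does not show equal levels.

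Other bone genes were taken from 5 lists with 61 genes, of which 58 had reads. In mock against untransfected cells 12 were higher and 15 lower of 48 tested, beside 27.5% higher and 23.4% lower over all genes. In sample against untransfected cells 10 were higher and 8 lower of 41 tested, beside 20.2% and 17.1% over all. The median log2 fold changes were -0.15 and 0.10, against the values near 0 over all genes. None of 41 tested was called in sample against mock cells in the authors' deposited table, where 0.0654% of all tested genes were. At an unadjusted p under 0.05 there was 1 in that table (1.94% of all tested genes). Limma called 0 of 40 and had 5 at an unadjusted p under 0.05 (4.32% of all tested genes). Against untransfected cells limma called 12 higher and 14 lower of 40 in mock cells, and 13 and 13 in sample cells. Over all genes it called 59% and 50.6%. Counts by list below stand beside the shares over all genes given above. They rest on few genes each, and no list was tested as a set.

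Among bone transcription regulators 6 were higher and 2 lower of 13 tested in mock cells, and 6 and 2 of 12 in sample cells. CBFB, the DNA-binding partner of RUNX2, averaged 3033 ± 77.9 normalized read counts in untransfected, 5382 ± 60.3 in mock and 4503 ± 569 (SD, n = 2) in sample cells. CBFB rose in both (log2 values 0.86 and 0.58, the authors' deposited tables). ALX4, a homeobox factor of skull and limb development, went from 142 ± 5.66 to 13.2 ± 0.324 and 10.3 ± 3.01 (SD, n = 2) and fell (-3.03 and -2.82) in log2 units (the authors' deposited tables). ZNF521, a zinc finger partner that restrains RUNX2, fell (-2.05 and -1.56), and the mesenchymal factor TWIST2 rose (1.34 and 1.25), in those log2 units (the authors' deposited tables). The co-activator WWTR1 (0.15 and 0.27) and the homeobox gene PRRX1 (-0.16 and 0.10) were not called in either, on the log2 scale (the authors' deposited tables). TWIST1, another repressor of RUNX2, had 0 reads.

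Bone matrix and collagen assembly genes had 2 higher and 7 lower of 15 tested in mock cells, and 2 and 2 of 14 in sample cells. The limma counts were 2 and 7 of 14 in mock cells, and 2 and 6 of 14 in sample cells. FN1, the fibronectin on which matrix assembles, averaged 7654 ± 50.4, 20807 ± 2064 and 18458 ± 303 (SD, n = 2) normalized read counts in untransfected, mock and sample cells. FN1 (1.47 and 1.27) and the collagen lysyl hydroxylase PLOD2 (1.17 and 0.92) rose in both, on the log2 scale (the authors' deposited tables). The collagen chaperone SERPINH1 fell in both (-0.61 and -0.30), and the proteoglycan LUM fell in mock cells (-1.02), with -0.67 (adjusted p = 0.0764) in sample cells, in log2 units per DESeq2 (the authors' deposited tables). By limma LUM was also called in sample cells (-0.66, adjusted p = 0.0257), and the sample call of SERPINH1 was lost without sample library a (-0.23, adjusted p = 0.0642) or untransfected library b (-0.27, adjusted p = 0.0971). CRTAP and FKBP10, which act in collagen modification and folding, were not called (-0.14 and 0.07 in mock cells, in the authors' deposited table). COL1A1, the chief collagen of bone, was chosen after its values were seen. Its normalized read counts were 7872 and 8172 without transfection and 5548 and 5435 in the mock group. The sample libraries a and b held 6084 and 14744. COL1A1 fell in mock cells (-0.51) and was at 0.29 (SE 0.44, adjusted p = 0.661) in sample cells per DESeq2 in the authors' deposited tables, where its 2 libraries lay on either side of the untransfected ones. The mock call was not shared by limma (-0.55, adjusted p = 0.136), which called it in 2 of 6 fits that leave out 1 library, those without sample library a or b. In sample cells limma gave 0.88 (adjusted p = 6.37e-06) without sample library a and -0.38 (adjusted p = 0.00135) without sample library b, so each library alone decided the direction.

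Phosphate and mineralisation genes had 4 higher and 2 lower of 10 tested in mock cells, and 2 and 2 of 9 in sample cells. The limma counts were 4 and 2 of 9 in each. The phosphate importer SLC20A1 averaged 3443 ± 48.9, 7631 ± 140 and 7205 ± 533 (SD, n = 2) normalized read counts in untransfected, mock and sample cells. SLC20A1 (1.17 and 1.06) and its relative SLC20A2 (0.60 and 0.66) rose in both, on the log2 scale (the authors' deposited tables). ANKH, which exports ATP and so supplies pyrophosphate, rose in mock cells (0.34) and was at 0.32 (adjusted p = 0.0536) in sample cells in the authors' deposited DESeq2 tables. By limma ANKH was called in both (0.0173 as the adjusted p in sample cells), but not in mock cells without mock library b, untransfected library a or untransfected library b (adjusted p 0.0646 to 0.0699). FAM20C, the kinase that phosphorylates SPP1 and other secreted proteins, fell in both (-1.22 and -0.80 in the authors' deposited tables), and its sample call was lost by limma without sample library a (-0.53, adjusted p = 0.125). ENPP1, which makes pyrophosphate, and the phosphatase PHOSPHO1, at a mean of only 33.2 in untransfected cells, were not called (-0.14 and -0.32 in mock, -0.34 and 0.20 in sample cells, in the authors' deposited tables).

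Genes of osteoclast coupling and hormone receptors had 0 higher and 3 lower of 8 tested in mock cells, and 0 and 1 of 5 in sample cells. The limma counts were 1 and 2 of 4 in each. LGR4, an R-spondin receptor that also binds RANKL, averaged 1107 ± 37.2, 240.4 ± 27.3 and 293 ± 47.9 (SD, n = 2) normalized read counts and fell in both (-2.13 and -1.80 in the authors' deposited tables). The semaphorin SEMA3A fell in mock cells (-0.75, adjusted p = 0.0198) and was at -0.81 (adjusted p = 0.0735) in sample cells per DESeq2 in the authors' deposited tables. By limma SEMA3A was called in sample cells too (-1.03, adjusted p = 0.00463). The vitamin D receptor VDR (0.17) and the macrophage factor CSF1 (0.56) were not called in mock cells in the authors' deposited table, whereas limma called CSF1 there (0.57, adjusted p = 0.0215). Of the osteocyte list, 0 were higher and 1 lower of 2 tested in mock cells, and 0 and 1 of 1 in sample cells. Podoplanin, PDPN, fell (-0.76 and -0.51), and SOST, the Wnt antagonist of osteocytes, averaged 6.59 ± 2.85 normalized read counts in untransfected cells and was not called in mock cells (-0.32) per the authors' deposited table. The sample call of PDPN was lost by limma without sample library a (-0.34, adjusted p = 0.111).

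**Figure D3:**
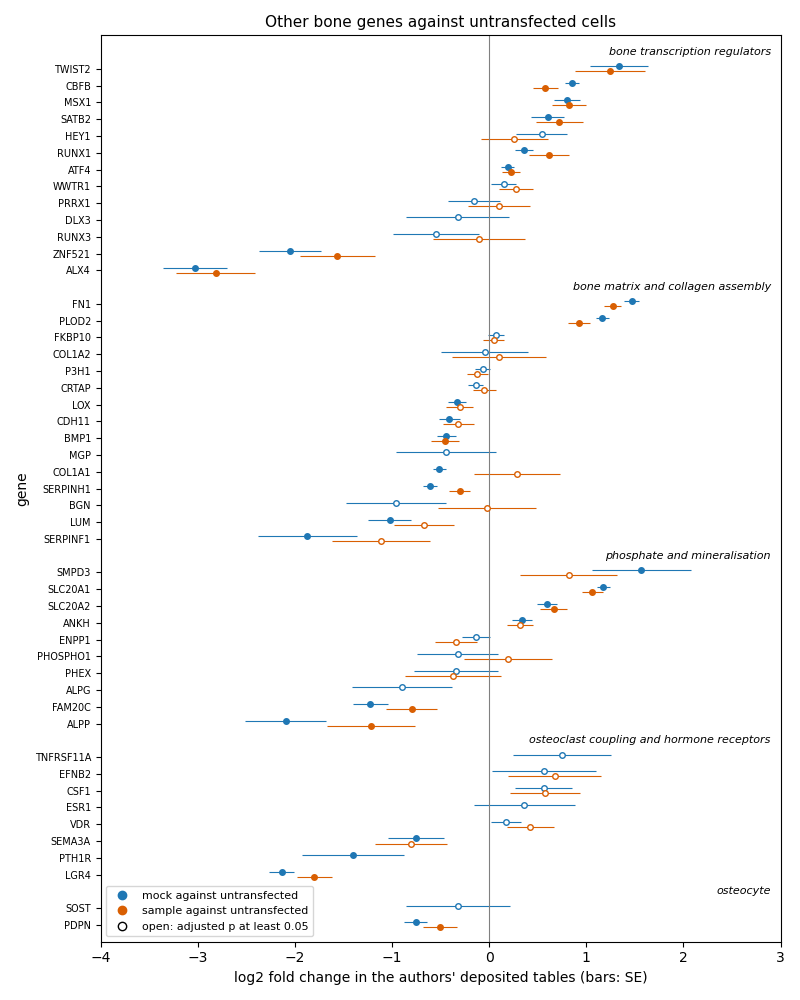
Fold changes on a log2 axis, from the authors' deposited tables, of the 48 other bone genes tested in mock against untransfected cells (blue) and of those tested in sample against untransfected cells (orange), by list, with bars for the standard error and open points for an adjusted p of at least 0.05. ALX4, LGR4 and ZNF521 lie far to the left in both, and FN1, TWIST2 and SLC20A1 to the right.

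Checked against its markers, the line expressed part of the osteoblast set: 2 of 10 markers (IBSP and DLX5) were at 0 and 3 of 10 averaged under 10. The 5 adipocyte markers summed to 1021 to 1076 normalized read counts in untransfected, 481 to 485 in mock and 508 to 526 in sample libraries, lower in both transfected groups, with 3 of 5 (ADIPOQ, FABP4 and PLIN1) averaging under 10. The LPL mean went from 507 in untransfected to 81.4 and 87.3 in mock and sample cells. The 4 muscle markers, with MYOG at 0, summed to 81.8 to 88.2 in the untransfected group, 38.1 to 42.6 in the mock group and 38.2 to 41.1 in the sample group. DES, which made up most of that sum, was called lower in both comparisons with untransfected cells (-1.17 and -1.01 in log2 units, the authors' deposited tables). ACTA1 averaged 4.74, 8.88 and 4.39 in untransfected, mock and sample cells, and MYOD1 2.06, 0.353 and 2.83. In the authors' deposited tables ACTA1 was not called in mock against untransfected cells and had no adjusted p in sample against untransfected cells. MYOD1 had none in either. The 5 epithelial markers summed to 12255 to 13256, 14637 to 17490 and 15045 to 17275 in the same order, and moved in different directions. The keratin KRT18 was called higher (means of 5351, 9775 and 9619 normalized read counts), the adhesion protein EPCAM was called lower (183, 65.5 and 58.8), and KRT8 (7173, 6172 and 6433) and CDH1 were not called. The 5 blood cell markers, with CD3E at 0, summed to at most 28.9 in untransfected and mock and to 74 to 124 in sample libraries. That difference was one of a single gene, the globin HBB, with means of 3.13, 7.5 and 82.3, while the leukocyte gene PTPRC averaged 11.6, 5.95 and 4.0 and HBA1 and CD14 averaged under 10 in each group. HBB was called higher in sample against mock cells (adjusted p = 0.0191 by DESeq2, the authors' deposited table). Of 15285 genes tested there, 1 was called higher and 9 lower. The origin of the HBB reads was not tested. The 6 chondrocyte markers summed to 1923 to 1928, 1701 to 1769 and 1547 to 2819, with COMP at 0. The part of these markers in the results above was not tested. Over genes averaging 50 or more, the SD of the log2 ratio between the libraries of a group was 0.173 in untransfected, 0.208 in mock and 0.413 in sample cells.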

How the data were processed

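RNA was sequenced in 6 libraries, grouped by the transfection in the labels. The submitters' processing notes list Bowtie, STAR and hg38 beside the DESeq2 used by the authors, with no version, role or counting method given in the sources used here. Each of the 3 deposited tables compares 2 groups over 40029 entries. Per the file headers, its columns are a mean signal (normalized read counts averaged over 4 libraries), the log2 fold change with its error, the Wald score, and the p-value with its adjusted form, all computed by the authors. As the values show, deposited fold changes are shrunk toward 0. The DESeq2 test that the authors deposited, at an adjusted p under 0.05, was the main result.

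Each mean is a sum of whole reads divided by size factors, so lattice reduction (sympy 1.14.0) gave the reads of all 6 libraries. All 30527 entries with reads met the 3 means within a relative tolerance of 1e-14, and 9986 of 9986 simulated entries were recovered. The simulation took the inferred size factors as known and drew the spread between libraries that the recovery assumes. It therefore tested neither of these. Which library is which replicate number is not known. Normalized read counts divide these reads by median-of-ratios size factors. Symbols were found for 39720 accessions (99.2%) in RefSeq (GRCh38.p14) or, failing that, GENCODE; entries with no symbol held 0.0841% of reads. Entries of a gene share reads. Recovered reads went through voom and limma 3.58.1 (R 4.3.3) for genes averaging at least 10, with Benjamini-Hochberg adjustment, checked on simulated data. Alternatives changed the threshold, the filter, library sizes, the entry and the libraries kept.

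The members and lists were chosen with earlier results of these data known. All 10 members are given. From each list, up to 4 genes called in mock cells with a mean of at least 50 and the largest fold changes are named, with up to 2 of the list's most abundant not called, for which no minimum was set. Genes outside the rule are also mentioned: TNFSF11, TWIST1, COL1A1, and those of the closing paragraphs. Python 3.11.15 was used.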

Additional observations from a re-analysis of the deposited data

How the results depend on the processing

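No paired analysis was possible because the recovered reads carry no replicate number. Total-count library sizes shifted the median of all genes by -0.126 (log2) in mock and -0.112 in sample against untransfected cells, and the share of limma calls that were higher went from 50.4% to 38.9% and from 50.5% to 38.7%. With them 3 lineage genes were called in mock cells, 1 higher and 2 lower, against 3 and 2 otherwise. The share of all genes called with these sizes is not given here, so the difference says nothing particular to the set. A fit that leaves out 1 library assumes that the lone library varies like the other groups. Counts of genes called in such fits are left out. Without sample library a, limma values in sample against mock cells were -0.394 for CBFB and 0.638 for RUNX1. They were 1.42 for COL1A1, 2.3 for BGN and 0.415 for SERPINH1. These 5 other bone genes were chosen by their values in that fit. At an adjusted p under 0.01 SPP1 (mock) and MSX2 (sample) were no longer called. With single libraries left out, limma values changed sign for BGLAP in sample against untransfected cells (-0.90 to 0.0067) and, in sample against mock cells, for SPARC (-0.017 to 0.054, with -0.00053 without sample library a) and BGLAP (-0.23 to 0.65). None of these was called, and the cause was not tested. ALPL, RUNX2 and SPARC kept their direction and call against untransfected cells in all alternatives, with leave-one-out ranges of 3.55 to 3.80, -2.67 to -2.54 and -0.67 to -0.60 in mock and 3.04 to 3.38, -2.08 to -1.58 and -0.63 to -0.58 in sample cells. Depth limits BGLAP most, with 4 reads in sample library b.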

Other observations

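Relatives of RUNX2 and ALPL are given here and were chosen after their values were seen. RUNX1, the Runt factor best known from blood formation, averaged 1110.5 ± 76.5 normalized read counts in untransfected, 1395 ± 4.84 in mock and 1741 ± 612 (SD, n = 2) in sample cells. RUNX1 was called higher in both, with log2 fold changes of 0.36 (adjusted p = 0.000679) in mock and 0.62 (adjusted p = 0.00951) in sample cells per DESeq2 in the authors' deposited tables. By limma it was not called in mock cells (0.33, adjusted p = 0.104) and passed narrowly in sample cells (0.46, adjusted p = 0.0495). The limma call in sample cells was lost with total-count library sizes (0.34, adjusted p = 0.153) and with a minimum mean of 50 (0.46, adjusted p = 0.0542). It was also lost without either untransfected or either mock library, where the values were 0.40 to 0.54. RUNX3 averaged 27.5, 16.6 and 24.4 normalized read counts in untransfected, mock and sample cells, lower in both mock than in both untransfected libraries. It was not called in either comparison (-0.55 and -0.11 in the authors' deposited tables), with -0.71 (adjusted p = 0.0671) in mock cells by limma. ALPP, the placental alkaline phosphatase, averaged 57.5 ± 10.1, 9.43 ± 2.36 and 18.1 ± 3.5 (SD, n = 2) normalized read counts in untransfected, mock and sample cells. ALPP fell, with -2.09 (adjusted p = 2.07e-06) and -1.22 (adjusted p = 0.0217) per DESeq2 in the authors' deposited tables, and the sample call was lost by limma without sample library a (-1.34, adjusted p = 0.0792). ALPP has near-identical paralogs whose reads can be shared. ALPI, the intestinal form, had 1 read in all.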
